A study of Mus musculus with 12 samples.

Results

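The genes described here act in the early stages of B cell receptor assembly, and they were followed in sorted mouse granulocyte-monocyte progenitors (GMP) with and without the transcription factor Runx1. A probe was included if the gene name in the scanner file was Vpreb1, Vpreb2, Vpreb3, Igll1, Dntt, Rag1, Rag2, Cd79a, Cd79b or Ebf1. These 10 genes had 13 probes among the 39429 probes of the array, which carry 30119 distinct names. The genes were chosen with their levels in these arrays known, so their levels and differences are given as descriptions, with standard errors and no p-values. Counts of them past the threshold of the fit are likewise descriptions, set beside the share of all genes that passed.

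RNA was measured on 12 one-colour arrays in 4 groups. The wt group (4 arrays) was GMP of Runx1+/+-Tg(vav-Cre) mice, and the ko group (4 arrays) was GMP of Runx1fl/fl-Tg(vav-Cre) mice. The vav-Cre transgene drives Cre recombinase in blood cells and was carried by both groups. The ERt2 and RUNX1-ERt2 groups (2 arrays each) were GFP+ GMP from lethally irradiated mice that had received Runx1fl/fl-Tg(vav-Cre) bone marrow. That marrow was taken 3 days after 150 mg/kg 5-fluorouracil and infected with a retroviral vector (MIG) that expresses GFP together with RUNX1-ERt2 or with ERt2 alone. ERt2 is a modified oestrogen receptor domain that makes a fused protein depend on tamoxifen. Tamoxifen was given 6 weeks later at 49.5 µg/g on 3 days, and marrow was harvested after 24 h. The protocol gives tamoxifen to part of the mice, while the labels name it for all 4 of these arrays, and the labels were followed. Sex, age and any pooling of animals were not given in the sources used here. The labels do not say whether replicates came from separate mice, and the errors and p-values may therefore cover technical spread only.

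In B cell progenitors, the RAG1 and RAG2 proteins cut DNA next to the V, D and J segments of the antibody genes, and end-joining proteins seal the cuts. Terminal deoxynucleotidyl transferase, the product of Dntt, adds bases at the junctions. A rearranged heavy chain first reaches the cell surface with a surrogate light chain, made of a VpreB protein (from Vpreb1 or Vpreb2) and lambda5 (from Igll1), and with the signalling chains CD79A and CD79B. EBF1 is a transcription factor that B lineage commitment requires and that activates several of these genes. GMP give rise to neutrophils and monocytes, and low transcription of lymphoid genes in early blood progenitors is known as lymphoid priming.

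All 8 markers of GMP used here (Mpo, Elane, Prtn3, Ctsg, Ms4a3, Csf3r, Kit and Cd34) were well above background on every array. Between 53.5% and 63.1% of probes were well above background, and the median spot intensity was 61.4 to 92.5 on the wt and ko arrays and 40.2 to 54.4 on the transplanted ones. The wt and ko replicates 1 and 2 shared slide 1 and their replicates 3 and 4 shared slide 2. ERt2 arrays filled slide 3 and RUNX1-ERt2 arrays slide 4, so slide and group cannot be told apart in any comparison with these groups. Each slide had its own scan date in the file headers, and slide 2 carried another protocol name than slides 1, 3 and 4. A difference between slides therefore holds slide, scan date and, for slide 2, protocol together. The Runx1 probe read 1.69 ± 0.17 log2 higher in ko than in wt (SE; adjusted p = 0.00025, limma with Benjamini-Hochberg adjustment). It read lower in RUNX1-ERt2 than in ERt2 (log2 difference -1.09 ± 0.24, adjusted p = 0.012, limma). Where this probe lies relative to the deleted exons is unknown here, so it does not check the labels.

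The upstream sequences of the surrogate light chain genes are shown first, because Vpreb1, Vpreb2 and Igll1 are the members with the largest differences. The bases are the 250 before the annotated start, 5′ to 3′ on the strand of the gene, from RefSeq on GRCm38.p6. The Vpreb1 stretch is chr16:16869256-16869505 (minus strand), that of Vpreb2 chr16:17980315-17980564 (plus strand) and that of Igll1 chr16:16863986-16864235 (minus strand). Capitals mark the ungapped stretch shared by Vpreb1 and Vpreb2, and in Igll1 the RUNX motif TGTGGT read on the other strand.
Vpreb1: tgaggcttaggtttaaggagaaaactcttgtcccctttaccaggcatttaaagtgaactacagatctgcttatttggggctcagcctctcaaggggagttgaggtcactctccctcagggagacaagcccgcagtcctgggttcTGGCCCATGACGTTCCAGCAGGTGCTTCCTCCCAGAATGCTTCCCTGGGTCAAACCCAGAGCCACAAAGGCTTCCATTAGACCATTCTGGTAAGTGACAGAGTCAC
Vpreb2: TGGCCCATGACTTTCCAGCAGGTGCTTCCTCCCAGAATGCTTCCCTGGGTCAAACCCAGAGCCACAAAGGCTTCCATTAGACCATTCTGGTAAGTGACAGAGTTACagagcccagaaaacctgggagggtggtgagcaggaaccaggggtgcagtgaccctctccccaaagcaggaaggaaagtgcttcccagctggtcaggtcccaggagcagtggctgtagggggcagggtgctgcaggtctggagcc
Igll1: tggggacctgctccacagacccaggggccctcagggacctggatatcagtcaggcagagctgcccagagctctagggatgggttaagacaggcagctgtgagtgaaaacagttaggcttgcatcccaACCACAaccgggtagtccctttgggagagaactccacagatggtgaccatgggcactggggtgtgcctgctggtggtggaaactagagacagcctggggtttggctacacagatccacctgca
The shared stretch is 106 bases long with 104 matching bases (98.1% identity). It ends at base 1 before the start of Vpreb1 and at base 145 before that of Vpreb2, so the annotated starts of these near-copies differ in place. The array probes of both genes do not lie in these stretches, and their longest run in common is 6 bases.

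Short motifs were counted on both strands in the same 250-base windows, found for 9 of the 10 genes (10 windows, Ebf1 with 2 starts). TGTGGT, the core of the RUNX motif, was in the windows of 4 genes, Vpreb3, Igll1, Rag1 and Ebf1, against 14.0% of 32851 promoter windows. The letters were not found in the windows of Vpreb1, Vpreb2, Dntt, Rag2 and Cd79a. The E-box CAGCTG or CAGGTG was in 5 genes (Vpreb1, Vpreb2, Igll1, Rag1 and Cd79a) against 27.7% of windows. The EBF motif CCCNNGGG was in Igll1 alone, 231 to 224 bases before its start, against 11.8% of windows. The Igll1 RUNX match lies 123 to 118 bases before the start, and 1 RUNX match of Ebf1 lies 12 to 7 bases before a start. A match is a run of letters and was not tested as a binding site.

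Vpreb1, Vpreb2 and Igll1 had their highest mean level in RUNX1-ERt2 GMP. Levels are log2 of the processed spot intensity relative to the 75th percentile of the array, so 0 is the intensity at that percentile. They compare arrays for 1 probe, not 1 gene with another.

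Vpreb1, whose product is the variable-like part of the surrogate light chain, was well above background on all 12 arrays (probe at chr16:16868559-16868618, mm9, minus strand). Its level was -0.49, -0.80, -0.47 and -0.24 in wt replicates 1 to 4. In ko it was -1.63, -1.28, -0.63 and -1.62. It was -2.16 and -2.07 in ERt2 and 3.00 and 4.50 in RUNX1-ERt2. As spot intensities, the ERt2 arrays read 215 and 201 and the RUNX1-ERt2 arrays 7940 and 22800. Both RUNX1-ERt2 arrays lay above all 10 other arrays, both ERt2 arrays lay below all others, and wt and ko overlapped. The difference was 5.86 ± 0.45 (log2, SE) between RUNX1-ERt2 and ERt2, a 58.0-fold difference. Leaving out any 1 of these 4 arrays gave 5.11 to 6.61. The RUNX1-ERt2 mean also lay 4.25 above the wt mean on this scale, with no correction for slide.

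Vpreb2, the near-copy of Vpreb1, lies on the same chromosome with its probe 1113 kb away (chr16:17981114-17981173, mm9, plus strand). Its level was -3.54, -3.98, -1.98 and -0.62 in wt, and -4.14, -3.47, -2.69 and -1.50 in ko. In ERt2 it was -6.93 and -6.94, not well above background on either array. It was -0.89 and 0.73 in RUNX1-ERt2. These lay above both ERt2 arrays, while the lower of them lay below wt replicate 4. The measured difference between RUNX1-ERt2 and ERt2 was 6.85 ± 0.63 (log2, SE), and because ERt2 gives only a bound, the level was at least 34.4-fold higher, or at least 19.6-fold without RUNX1-ERt2 replicate 2 and 60.3-fold without replicate 1. The bound sets the mean of the bright group against the lowest signal that counted as well above background on the dim arrays. With normexp background correction, which fits a background to the raw signals, the measured log2 difference was 3.59, less than this bound, which therefore holds for the main processing only. In wt and ko the 4 arrays of slide 2 (-2.69 to -0.62) all lay above the 4 arrays of slide 1 (-4.14 to -3.47). The slide 2 mean was 2.46 above that of slide 1 in wt and 1.71 above it in ko.

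Igll1 encodes lambda5, the constant-like part of the surrogate light chain, and its probe lies 7.46 kb from that of Vpreb1 (chr16:16861104-16861163, mm9, minus strand). The probe reads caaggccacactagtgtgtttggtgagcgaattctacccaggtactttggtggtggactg, which is shown because lambda constant genes are related in sequence, and binding of their RNA to this probe was not tested. Its level was -4.22, -5.52, -4.48 and -5.68 in wt and -6.26, -5.16, -4.31 and -7.04 in ko, well above background on 2 of 4 arrays in each. It was -5.64 and -6.00 in ERt2, where neither array was well above background. It was -1.28 and 0.14 in RUNX1-ERt2, above all 10 other arrays. The measured difference between RUNX1-ERt2 and ERt2 was 5.25 ± 0.88 (log2, SE), and the level was at least 24.5-fold higher, or at least 15.0-fold without RUNX1-ERt2 replicate 2 and 40.1-fold without replicate 1. With normexp the log2 difference was 2.99, again less than the bound.

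**Figure D1:**
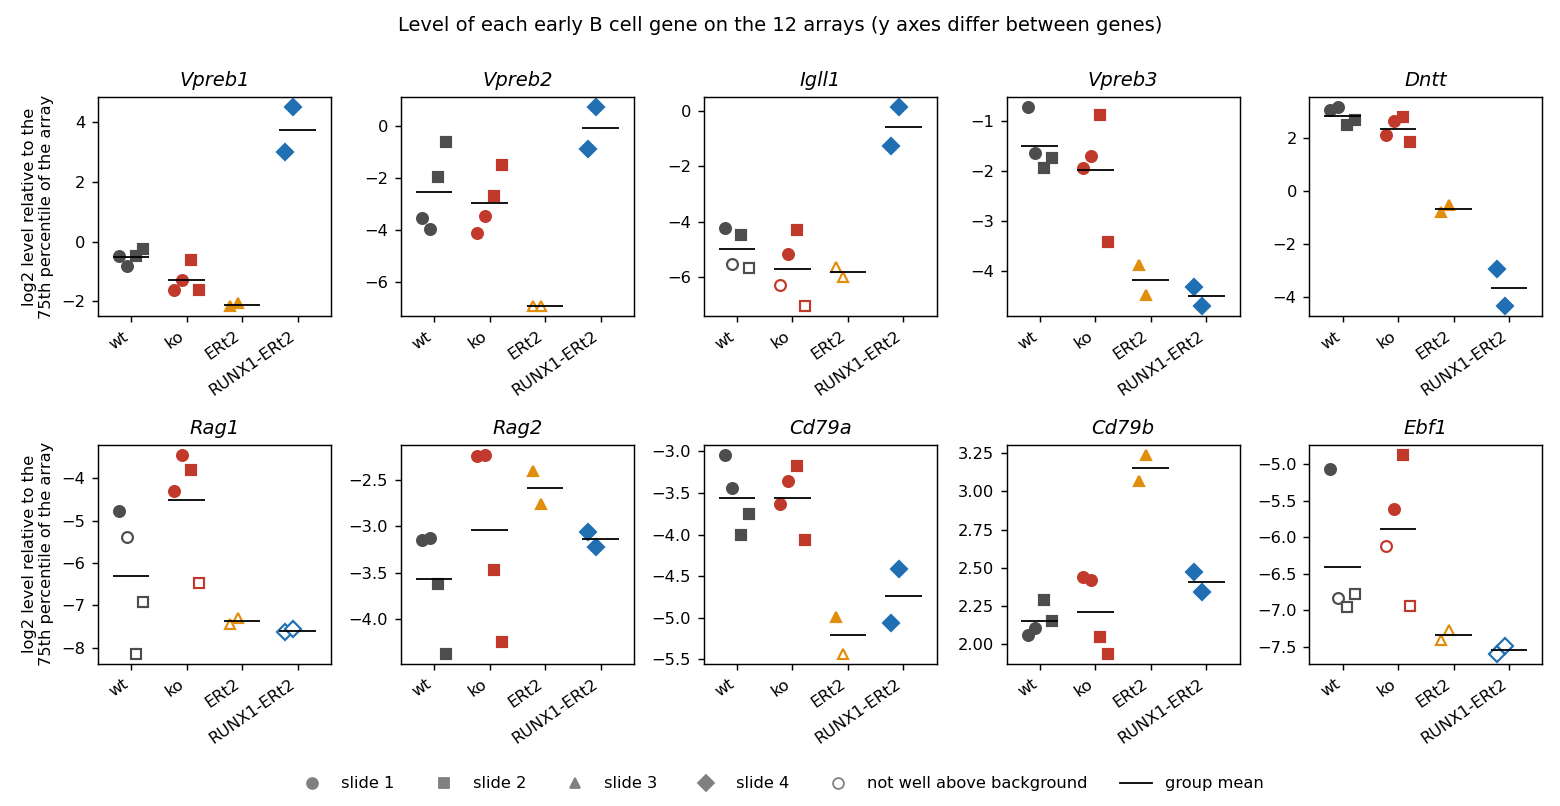
Level of each of the 10 genes on every array (y axis, log2 relative to the 75th percentile of the array; x axis, group). Shapes mark slides, open symbols arrays where the probe was not well above background, and lines group means; Vpreb1 and Igll1 on the RUNX1-ERt2 arrays sit above all other arrays, and Dntt on those arrays sits below all others.

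Vpreb3, a VpreB-related gene whose product binds immunoglobulin chains inside the cell, differed from these genes (probe at chr10:75412326-75412385, mm9). Its level was -0.73, -1.65, -1.94 and -1.74 in wt, and -1.95, -1.71, -0.88 and -3.42 in ko. It was -3.88 and -4.47 in ERt2 and -4.31 and -4.70 in RUNX1-ERt2. All 4 transplanted arrays lay below all wt and ko arrays, and the transplanted groups overlapped. The difference between RUNX1-ERt2 and ERt2 was -0.33 ± 0.67, and that between ERt2 and ko was -2.19 ± 0.58 (log2, SE), or -1.27 with normexp.

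Dntt, which encodes terminal deoxynucleotidyl transferase, was well above background on all arrays (probe at chr19:41133936-41133995, mm9). Its level was 3.03, 3.15, 2.48 and 2.65 in wt, and 2.09, 2.63, 2.76 and 1.84 in ko. It was -0.79 and -0.55 in ERt2 and -2.96 and -4.34 in RUNX1-ERt2. The order of the groups was wt, ko, ERt2 and RUNX1-ERt2. Wt and ko overlapped, and the other steps did not. RUNX1-ERt2 lay below ERt2 with a log2 difference of -2.98 ± 0.44 (SE), a 7.86-fold lower level, and of -2.28 without RUNX1-ERt2 replicate 2. ERt2 lay a further 8.01-fold below ko (log2 difference -3.00 ± 0.38). Dntt thus had the opposite sign to Vpreb1, Vpreb2 and Igll1 between RUNX1-ERt2 and ERt2.

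Rag1 and Rag2, which encode the recombinase, were dim. The brighter Rag1 probe (chr2:101478813-101478872, mm9, minus strand) read -4.77, -5.39, -8.14 and -6.91 in wt, where 1 array was well above background. In ko it read -4.29, -3.44, -3.80 and -6.48, with 3 of 4 arrays well above background. It read -7.45 and -7.29 in ERt2 and -7.64 and -7.56 in RUNX1-ERt2, with none of these arrays well above background. Rag1 therefore entered no test, and its ko minus wt difference was 1.80 ± 0.56 (log2, SE; 1.22 on slide 1 and 2.39 on slide 2), with the groups overlapping. In ERt2 it was at least 1.61-fold lower than in ko. The other Rag1 probe was well above background on none of the 12 arrays.

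The brighter Rag2 probe lies at chr2:101470723-101470782 (mm9). It read -3.15, -3.12, -3.62 and -4.38 in wt and -2.23, -2.22, -3.47 and -4.25 in ko. It read -2.40 and -2.76 in ERt2 and -3.06 and -3.22 in RUNX1-ERt2. All neighbours in the order of group means (ERt2, ko, RUNX1-ERt2, wt) overlapped, and the ko minus wt difference was 0.90 on slide 1 and 0.14 on slide 2. The other Rag2 probe, with 10 spots, was well above background on none of them, so the 2 probes disagree on whether Rag2 RNA was detected. The RUNX1-ERt2 minus ERt2 difference was -0.56 ± 0.34 (log2, SE).

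Cd79a and Cd79b encode the signalling chains of the receptor. Cd79a (probe at chr7:25686823-25686882, mm9) read -3.04, -3.44, -4.0 and -3.75 in wt and -3.63, -3.36, -3.18 and -4.07 in ko. It read -4.99 and -5.43 in ERt2, the first of them well above background, and -5.06 and -4.41 in RUNX1-ERt2. The transplanted arrays lay below all others, with the 2 transplanted groups overlapping. The ERt2 minus ko difference was -1.65 ± 0.29 (log2, SE), or -0.52 with normexp. A further Cd79a probe, whose 60 bases span 258 bases of the genome, was well above background on 3 of 4 wt and 3 of 4 ko arrays and on no transplanted one. For ko minus wt the probes gave 0.00 ± 0.24 and -0.97 ± 0.28, so they disagree. For ERt2 minus ko the further probe gave 0.19 ± 0.34 and so did not show the fall. For RUNX1-ERt2 minus ERt2 the probes gave 0.48 ± 0.34 and -0.53 ± 0.39.

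Cd79b (probe at chr11:106172780-106172839, mm9, minus strand) was well above background on every array. It read 2.06, 2.11, 2.29 and 2.15 in wt and 2.44, 2.42, 2.05 and 1.94 in ko. It read 3.07 and 3.24 in ERt2 and 2.47 and 2.34 in RUNX1-ERt2. Both ERt2 arrays lay above all others. RUNX1-ERt2 was 1.68-fold lower than ERt2 (log2 difference -0.75 ± 0.17, SE), and ERt2 was 1.92-fold higher than ko (0.94 ± 0.15). The ko minus wt difference changed sign between slides, from 0.34 on slide 1 to -0.22 on slide 2.

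Ebf1 (probe at chr11:44818438-44818497, mm9) read -5.06, -6.83, -6.95 and -6.78 in wt, where 1 array was well above background. It read -6.12, -5.61, -4.87 and -6.94 in ko, with 2 of 4 well above background. It read -7.41 and -7.27 in ERt2 and -7.59 and -7.48 in RUNX1-ERt2, none well above background. On the 2 arrays where Vpreb1 and Igll1 were highest, Ebf1 was not detectable by this probe.

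The wt and ko comparison asks what differs in GMP of mice with the deleted Runx1 genotype. Of the 10 genes, 8 entered the test, which asks that all arrays of some group be well above background. Between ko and wt none of these 8 passed an adjusted p of 0.05 (limma), where 25.3% of all genes did (11.5% higher and 13.8% lower). The groups overlapped for all 8, while 10% of all genes had every ko array above and 13.2% every ko array below the wt arrays. Their differences ran from -0.79 ± 0.32 for Vpreb1 to 0.52 ± 0.24 for Rag2 (log2, SE), with a median of -0.44 against -0.05 over all genes tested. The Vpreb1 difference was -0.81 on slide 1 and -0.77 on slide 2. Igll1 had -0.72 ± 0.62, Dntt -0.50 ± 0.31, Vpreb3 -0.47 ± 0.47, Vpreb2 -0.42 ± 0.44 and Cd79b 0.06 ± 0.12. Vpreb1 passed the threshold in 1 of 21 other settings (only the arrays compared), Vpreb3 in 1 (without ko replicate 3, difference -1.01) and Rag2 in 3 (slide 1 alone, and without wt replicate 3 or ko replicate 4, differences 0.75 to 0.90).

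The RUNX1-ERt2 and ERt2 groups were set up to compare cells given RUNX1 activity with vector controls, both from the ko genotype; RUNX1 activity itself was not measured. Between them, 3 of the 8 genes passed the threshold as higher (Vpreb1, Vpreb2 and Igll1; 10.2% of all genes did) and 2 as lower (Dntt and Cd79b; 8.87% of all genes), together 5 of 8 where 19.1% of all genes passed. The arrays did not overlap for 3 genes that were above and 3 that were below (Dntt, Rag2 and Cd79b), where 29.1% and 29.8% of all genes did the same. Igll1 entered the test only through RUNX1-ERt2, the group where it was high, so its call adds nothing. Vpreb3, Rag2 and Cd79a did not pass. The median of the 8 was 0.07 against 0.00 over all genes. The members were selected on this contrast, and these counts are a description. Leaving out any 1 of the 4 arrays left all 3 higher and 1 or 2 lower. The call lost was that of Cd79b, without ERt2 replicate 2 or RUNX1-ERt2 replicate 2, and also with normexp and with only the arrays compared.

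ERt2 and ko share the Runx1fl/fl-Tg(vav-Cre) genotype, and the difference between them holds transplantation, vector, tamoxifen and slide together. In ERt2, 1 of the 8 genes was past the threshold as higher (Cd79b; 30.2% of all genes were) and 4 as lower (Vpreb2, Vpreb3, Dntt and Cd79a; 26.7% of all genes), where 56.9% of all genes passed in either direction. Every ERt2 array lay above ko for 1 gene and below it for 5, where 33.9% and 29.1% of all genes did. Vpreb2 was at least 4.70-fold lower, as it was below background in ERt2. With normexp neither Vpreb2 (-1.16, less than this bound) nor Cd79a (-0.52) passed, and Vpreb3 did not pass without ERt2 replicate 2 (-1.90) or with only the arrays compared. Vpreb1 differed by -0.82 ± 0.39, Igll1 by -0.12 ± 0.76 and Rag2 by 0.47 ± 0.29 (log2, SE). Both this comparison and the preceding one use the ERt2 arrays, and this one shares the ko arrays with the comparison against wt.

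**Figure D2:**
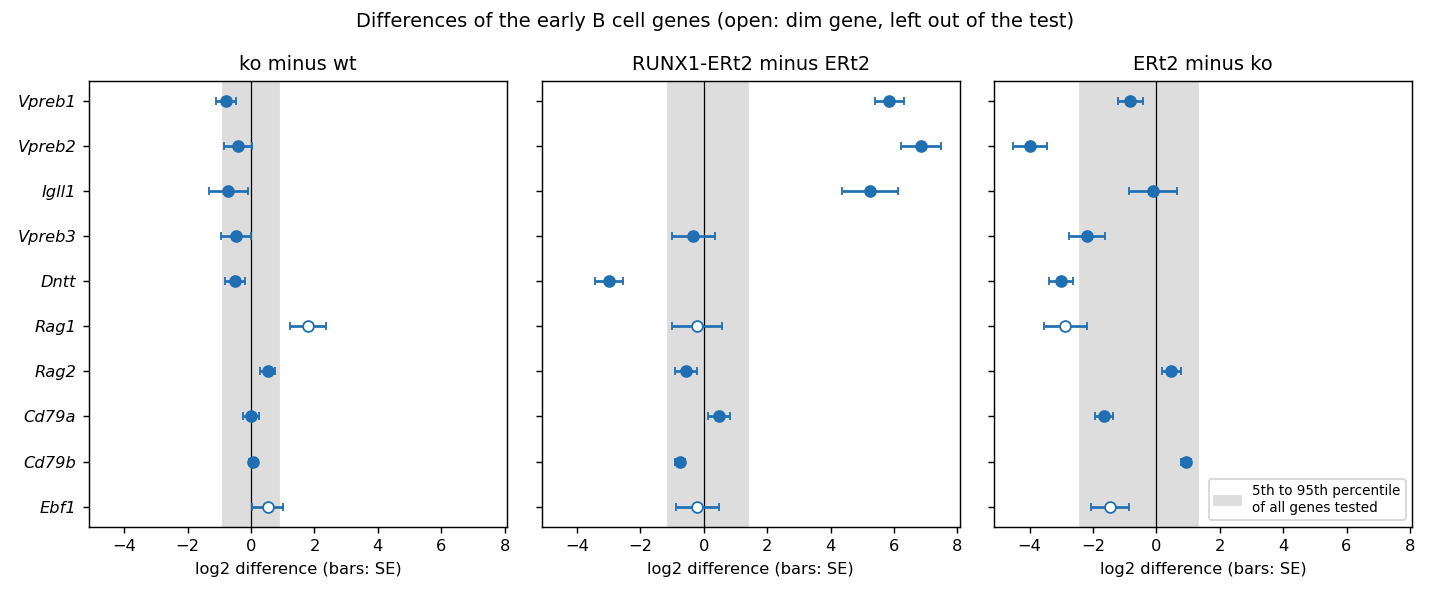
Differences of the 10 genes in the 3 comparisons (x axis, log2 difference; bars, SE; grey, 5th to 95th percentile of all genes tested). In RUNX1-ERt2 minus ERt2, Vpreb2 (6.85), Vpreb1 (5.86) and Igll1 (5.25) lie to the right of the grey band and Dntt (-2.98) to its left; open symbols are Rag1 and Ebf1, which entered no test.

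Because Igll1 and Vpreb1 are adjacent, the genes beside them were also read, a choice made after their values were seen. In RefSeq order, Spag6l lies next to Igll1, and Top3b and Ppm1f follow Vpreb1. Spag6l, a sperm flagellum gene, rose by 2.81 ± 0.47 in RUNX1-ERt2 against ERt2 (log2, SE; adjusted p = 0.00326, limma) and fell in ko against wt (-1.75 ± 0.33, adjusted p = 0.00606, limma). With normexp neither call held (0.57 with adjusted p = 0.72, and -1.0 with adjusted p = 0.118, limma), and the first was lost with only the arrays compared (adjusted p = 0.0688, limma). Top3b, a topoisomerase gene, fell (-1.11 ± 0.12, adjusted p = 0.000258, limma) in RUNX1-ERt2. Ppm1f, a protein phosphatase gene, rose by 1.08 ± 0.20 (adjusted p = 0.00605, limma) there and fell in ko (-0.79 ± 0.14, adjusted p = 0.00525, limma). Farther out, Fgd4 (0.17 ± 0.46), Dnm1l (0.25 ± 0.13) and Yars2 (-0.07 ± 0.24) did not pass the threshold in RUNX1-ERt2. Of 8 genes around Vpreb2, none passed as higher and 2 as lower (Prodh and Rtn4r), and of 8 around Vpreb3 none passed. Of 8 around Dntt 1 passed as higher (Ccnj, 1.12 ± 0.21) and 1 as lower (Pik3ap1, -1.20 ± 0.32). In ko against wt 2 genes passed as higher and 1 as lower around Vpreb2, 2 and 2 around Vpreb3, and 1 and 0 around Dntt. Blnk and Tm9sf3, on either side of Dntt, read 0.37 ± 0.51 and -0.18 ± 0.12, and neither passed.

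**Figure D3:**
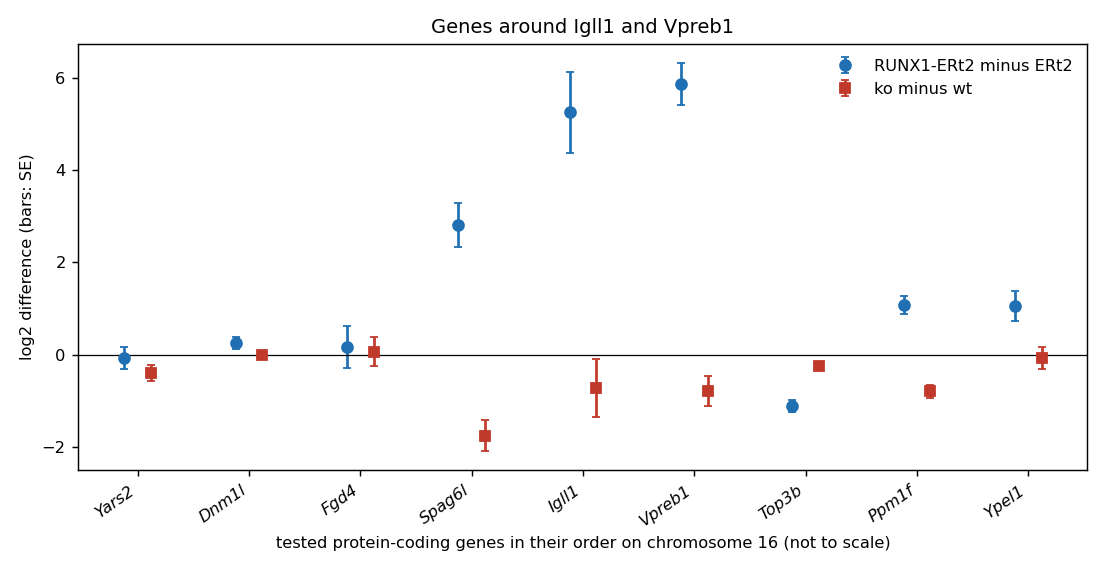
Log2 differences (y axis, bars SE) of tested protein-coding genes around Igll1 and Vpreb1, in their order along chromosome 16 (x axis, not to scale), for RUNX1-ERt2 minus ERt2 (circles) and ko minus wt (squares). Igll1 (5.25) and Vpreb1 (5.86) stand above their neighbours in the first comparison, with Spag6l at 2.81 and Top3b at -1.11.

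Other genes of the pathway were taken from lists, and their calls come from the fit over all genes (limma, adjusted p under 0.05). Over all genes, 10.2% passed as higher and 8.87% as lower in RUNX1-ERt2 against ERt2. In ko against wt, 11.5% passed as higher and 13.8% as lower. The counts of the lists, and those of the neighbours above, were not tested against these shares. Of 25 tested early lymphoid regulators, none rose and 2 fell in RUNX1-ERt2 against ERt2, with a median of 0.23 against 0.00 over all genes. Those were Pou2f2, an octamer-binding factor of B cells (-1.92 ± 0.27, adjusted p = 0.00141), and Flt3, a growth factor receptor of early lymphoid progenitors (-1.12 ± 0.28, adjusted p = 0.0223). The Flt3 call was lost in 6 of 16 other settings, with adjusted p of 0.0709 with the replicate number as a block, 0.138 without ERt2 replicate 1 and 0.129 without RUNX1-ERt2 replicate 1. In ko against wt 1 rose and 5 fell, with a median of -0.16. Foxo1, an activator of Rag transcription in B cells, rose (1.22 ± 0.08, adjusted p = 2.93e-05). Irf8 fell (-1.57 ± 0.28, adjusted p = 0.00441), as did Flt3 (-1.08 ± 0.20, adjusted p = 0.00512). Pou2af1 (-1.44 ± 0.37) and Irf4 (-1.23 ± 0.34) fell with adjusted p of 0.0203 and 0.0298, which the replicate block raised to 0.0564 and 0.053. Their calls were lost in 7 of 21 and 9 of 20 other settings. Among these, both were lost without wt replicate 1 or 2 and without ko replicate 1 or 2. Pou2af1 was also lost without ko replicate 4 and Irf4 without ko replicate 3. Irf4, 1 of the 5 that fell, entered the test only through wt, the group where it was high, so its ko call adds nothing. Pax5, the factor that fixes B cell identity, did not rise well above background anywhere.

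Of 21 tested genes of the B cell surface and its signalling, 2 rose and 3 fell in RUNX1-ERt2 (median -0.08), and 5 rose and 5 fell in ko (median 0.03). Cd72, a B cell coreceptor, fell in ko (-3.68 ± 0.36, adjusted p = 0.000221) and rose in RUNX1-ERt2 (2.76 ± 0.51, adjusted p = 0.00533, and 0.099 with only the arrays compared). Ms4a1, which encodes CD20, fell in ko by at least 2.74-fold (adjusted p = 0.000443) and was not well above background in either transplanted group. Ms4a1 entered the test only through wt, the group where it was high, so its ko call adds nothing. Bank1, a B cell adaptor, was at least 1.37-fold lower in RUNX1-ERt2 than in ERt2 (measured log2 difference -2.39 ± 0.29, adjusted p = 0.000568, and 0.748 with normexp). Fcrla was at least 1.56-fold lower (adjusted p = 0.0346, and 0.628 with normexp). Its log2 difference with normexp was -0.5, less than this bound. The Fcrla call was lost in 7 of 15 other settings, among them without ERt2 replicate 1 and without RUNX1-ERt2 replicate 2. Bank1 and Fcrla were each well above background on 1 ERt2 array and on no RUNX1-ERt2 array. Btk, the tyrosine kinase downstream of CD79A and CD79B, rose in ko (0.67 ± 0.09, adjusted p = 0.00142) and fell in RUNX1-ERt2 (-0.65 ± 0.13, adjusted p = 0.00874, 0.0585 with normexp and 0.0567 with only the arrays compared).

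Of 16 genes that join V(D)J ends, 1 rose and 2 fell in RUNX1-ERt2 (median -0.11), and 1 rose and 4 fell in ko (median -0.10). Polm encodes a DNA polymerase related to terminal transferase. It rose in ko (1.42 ± 0.22, adjusted p = 0.00245) and fell in RUNX1-ERt2 (-2.05 ± 0.31, adjusted p = 0.00208). Xrcc5, which encodes Ku80 of the end-binding complex, rose in RUNX1-ERt2 (1.57 ± 0.25, adjusted p = 0.00284). Xrcc4 fell there (-0.42 ± 0.12, adjusted p = 0.0375), a call lost in 12 of 16 other settings, among them each array left out in turn (highest adjusted p 0.265, with normexp, and 0.0703 with the replicate block). In ko, H2afx (-0.62 ± 0.13), Hmgb2 (-0.50 ± 0.10) and Poll (-0.49 ± 0.10) were among those that fell. With normexp H2afx and Hmgb2 did not pass (adjusted p = 0.0907 and 0.0672), and with slide 1 alone Poll did not (adjusted p = 0.0583).

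Markers of other cells that a GMP gate could hold were read beside the members. Of 6 B lineage markers, Pax5 and Blk were well above background on none of the 12 arrays and Ms4a1 on none of the 4 transplanted ones, while Cd22 and Cr2 were well above background on every array. The summed level of the 6 (in multiples of the 75th percentile of the array) was 0.405 to 0.503 in wt, 0.384 to 0.468 in ko, 0.287 to 0.297 in ERt2 and 0.280 to 0.358 in RUNX1-ERt2. For 6 plasmacytoid dendritic cell markers it was 70.1 to 109 in wt, 61.7 to 96.8 in ko, 49.6 to 61.8 in ERt2 and 68.7 to 70.1 in RUNX1-ERt2. For 8 T and NK cell markers it was 3.04 to 4.24, 2.76 to 3.42, 1.68 to 1.70 and 1.93 to 2.78, in the same order of groups. For 4 plasma cell markers it was 3.52 to 11.3, 0.849 to 3.09, 1.48 to 2.10 and 1.5 to 3.72. Each sum serves only to set arrays side by side and follows its brightest probes. Igj, with mean levels of 2.80 in wt and 0.13 in ko, led the plasma cell sum, while Sdc1 had -2.67 and -1.73. Siglech, with 5.99 in wt, 5.92 in ko, 5.34 in ERt2 and 5.67 in RUNX1-ERt2, led that of plasmacytoid dendritic cells. For the 8 GMP markers it was 630 to 884, 432 to 562, 924 to 1060 and 484 to 674. Fewer cells of a type and less RNA per cell cannot be told apart in these sorted populations, and the part of such cells in the levels of Dntt, Vpreb3 and the other members was not tested.

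In the wider lists of these cell types, 2 of 15 tested T and NK cell genes rose and 1 fell in RUNX1-ERt2 (median 0.64). The gene that fell was Nkg7 (-1.57 ± 0.27, adjusted p = 0.0037, limma), a call kept in all 16 other settings. Tcf7, a factor of early T cells, was at least 2.01-fold higher (adjusted p = 0.00504, and 0.675 with normexp). With normexp the log2 difference was 0.61, less than this bound. Tcf7 entered the test only through RUNX1-ERt2, the group where it was high, so its call adds nothing. Lck, a T cell kinase, rose by 1.44 ± 0.36 (adjusted p = 0.0214). The Lck call was lost in 4 of 16 other settings: with only the arrays compared (adjusted p = 0.0786), without ERt2 replicate 1 (0.0798) or 2 (0.0881), and without RUNX1-ERt2 replicate 2 (0.134). In ko 2 rose, among them Gata3 (2.36 ± 0.21, adjusted p = 0.000152), and 2 fell (median 0.14). Of 12 plasmacytoid dendritic cell genes, 1 rose and 2 fell in RUNX1-ERt2 (median 0.16), and 2 rose and 3 fell in ko (median -0.03). Cd300c rose by 3.43 ± 0.22 in RUNX1-ERt2 (adjusted p = 1.69e-05). Those that fell there were Runx2 (-1.32 ± 0.19, adjusted p = 0.0016, limma) and Lair1 (-1.18 ± 0.32, adjusted p = 0.0291, limma). The Lair1 call was lost in 5 of 16 other settings. Of 8 plasma cell genes, none rose and 2 fell in RUNX1-ERt2 (median -0.08), and 1 rose and 4 fell in ko (median -1.0), among them Igj, the joining chain gene (-2.67 ± 0.69, adjusted p = 0.0222). The 4 include Irf4 and Tnfrsf17, which entered the test only through wt, where they were high. Tnfrsf17 is also 1 of the 2 that fell in RUNX1-ERt2 (-1.31 ± 0.39, adjusted p = 0.046, limma). It was well above background on no ERt2 or RUNX1-ERt2 array. That call was lost in 7 of 15 other settings (adjusted p = 0.88 with normexp, limma). The other was Sdc1 (-2.34 ± 0.36, adjusted p = 0.00204, and 0.0581 with only the arrays compared, limma). Igj differed by -4.10 on slide 1 and -1.23 on slide 2, and its call was lost without wt replicate 1 (adjusted p = 0.0678) or 2 (0.0674). Of 16 GMP and promyelocyte genes, none rose and 7 fell in RUNX1-ERt2 (median -0.68), among them Csf1r, the macrophage growth factor receptor (-2.44 ± 0.42, adjusted p = 0.00352). The Csf1r call was kept in all 16 other settings. Those of Elane and Ctsg were each lost in 3 of 16, and those of Fcgr3 and Gfi1 each in 8 of 16. Without RUNX1-ERt2 replicate 2 these 4 genes read -1.79, -0.99, -1.23 and -0.95. The other settings were not read for Csf2ra and Kit, which also fell. In ko 1 rose and 6 fell (median -0.52), and between ERt2 and ko 12 rose and none fell (median 1.45). Among the 6, the call of Ctsg was lost in 15 of 21 other settings, and those of Prss57, Ms4a3 and Cebpa each in 1 of 21. Between ERt2 and ko, 30.2% of all genes passed as higher and 26.7% as lower. With slide 2 alone (2 arrays against 2), the ko calls of Foxo1, Irf8, Flt3, Pou2af1, Irf4, Ms4a1, Btk, H2afx, Hmgb2, Poll, Igj, Spag6l and Ppm1f were lost (adjusted p from 0.0565 to 0.541), and those of Cd72, Polm and Gata3 were kept.

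**Figure D4:**
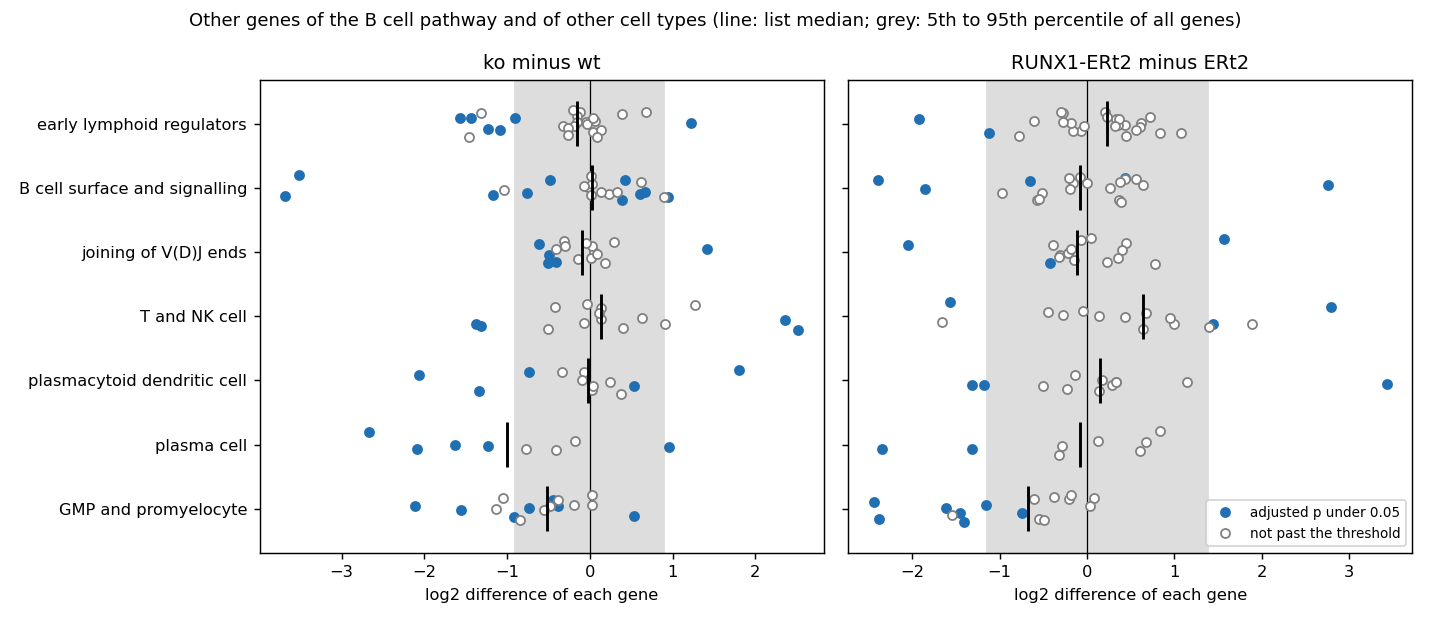
Log2 difference of each tested gene of the 7 lists (x axis) in ko minus wt and RUNX1-ERt2 minus ERt2; filled symbols passed an adjusted p of 0.05, black lines are list medians and grey is the 5th to 95th percentile of all genes. Cd300c (3.43), Tcf7 (2.79) and Cd72 (2.76) lie farthest to the right in the second panel, and all 3 lie below the differences of Vpreb1, Vpreb2 and Igll1. Tcf7 entered the test only through RUNX1-ERt2, where it was high.

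Likeness over the 12 arrays was read as Pearson's r. The named genes most like the mean standardised level of the 8 tested members were Cebpg (0.88), 6030458C11Rik (0.87), Cipc (0.86), Ube2d1 (0.86) and Lnx2 (0.86), with RUNX1-ERt2 minus ERt2 differences of 0.33 to 0.58. Vpreb1 alone, read so after its values were seen, was most like 3110040M04Rik (0.98), Slc27a2 (0.97), Ackr1 (0.96), Tmem151b (0.95) and Psrc1 (0.95). Slc27a2, a fatty acid transporter gene, was 6.15 higher in RUNX1-ERt2 than in ERt2 on the log2 scale, and Tmem151b 5.91. The points share groups, slides and arrays, so these values describe the arrays.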

How the data were processed

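RNA of sorted mouse GMP was hybridised to 12 one-colour (Cy3) arrays. The deposited spot intensities are scanner output from Agilent Feature Extraction, detrended after background subtraction per the file headers. The submitters' processing notes name version 9.1, which the headers do not. The authors' deposited series matrix holds ratios of intensity to about the array median (column medians 0.91 to 0.94). Scale and direction were found from the scanner values. The 4 transplanted columns fit the arrays of their labels, while 8 wt and ko columns fit another replicate of their group, so the matrix served as an alternative only.

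Outlier spots were left out, spots of a probe averaged, and the 75th percentile of each array was subtracted after log2. A gene was represented by its brightest probe and tested (17905 genes) where all arrays of a group were well above background. limma 3.58.1 in R 4.3.3 fitted group means and a slide term to all 12 arrays, with Benjamini-Hochberg adjustment, after being tested on simulated data. Intensities carry no read depth; the number of arrays limits precision.

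Members, tests and lists (early lymphoid regulators, B cell surface and signalling, joining of V(D)J ends, T and NK cell, plasmacytoid dendritic cell, plasma cell, GMP and promyelocyte) were chosen with earlier results of these data known. The rule named up to 4 genes of a list with the largest called differences in each of the first and second comparison; the text gives a part of them, and a few genes are not reported here, though counts and sums include them. The neighbours were named after their values were seen. Equal replicate numbers of wt and ko deviated together from their group means (correlations 0.37, 0.35, 0.18 and 0.67). Arrays with equal numbers also shared a slide, and within slides the correlations were -0.03 and 0.43. These values therefore do not settle whether the numbers pair the arrays. The main fit used the slide term and no pairing, and the replicate number was a block only in an alternative setting.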

Additional observations from a re-analysis of the deposited data

Results flagged for a closer look

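The 10 genes were scanned in the wt and ko groups for 1 array far from the other 3 (a gap to the nearest array, as a share of the range, above Dixon's 95% critical value). Of 20 gene and group pairs 1 was marked, Ebf1 in wt replicate 1, at a level of -5.06 with the nearest array at -6.78 (log2 relative to the 75th percentile). That array is the only wt array on which Ebf1 was well above background. Chance marks about 1 in 20 such groups.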

How the results depend on the processing

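No member difference that passed the threshold changed sign. With normexp, 923 genes rose and 1053 fell in ko, 726 and 664 in RUNX1-ERt2 against ERt2, and 2739 fell in ERt2 against ko. Members past the threshold as lower then numbered 1 in RUNX1-ERt2 and 2 in ERt2 against ko. In ko, 1397 genes fell when arrays were scaled to their median, 1328 fell in the series matrix, and slide 2 alone gave 181 higher and 200 lower. In ko, 1 member was lower with only the arrays compared and 1 higher with slide 1 alone. Only the arrays compared gave 886 higher, 767 lower and 1 member lower in RUNX1-ERt2. Requiring signal well above background on all 12 arrays left 1 member higher there, and 2 lower in ERt2 against ko, because dim genes were not tested. Without the filter 10563 genes rose in ERt2 against ko. Tcf7 in ERt2 against ko changed from -1.46 to 0.09 with normexp. Other causes were not tested. Of the single genes read in each comparison, 2078 values stayed on their side of the threshold, some with another sign below it, 194 lost the call and 32 gained it.

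Leaving out 1 array gave 1387 to 2250 genes higher and 1447 to 2585 lower in ko, with 0 to 1 member in each direction. In RUNX1-ERt2 it gave 1244 to 1375 higher and 935 to 1059 lower, with 3 members higher and 1 to 2 lower. In ERt2 against ko it gave 3691 to 5274 higher and 3771 to 4739 lower, with 1 member higher and 3 to 4 lower. With the replicate number as a block, 1781 genes rose and 1922 fell in ko, and 1682 and 1407 in RUNX1-ERt2. With the crossed pairing of the transplanted groups, chosen after seeing the data, these were 2162 and 1922. Among list genes named here the block also ended or made the calls given beside them, and for ko against wt it moved Bank1, Sdc1, Ctsg, Elane and Gfi1 across the threshold. The median of all genes in ERt2 against ko was 0.06, and 0.25 with the array median, so differences there move with the scaling.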
